A study of Hyphopichia burtonii and Hyphopichia pseudoburtonii with 16 samples.

Results

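Upper glycolysis runs from the phosphorylation of glucose to the pair of triose phosphates. Its genes were taken from the gene tables of the yeasts Hyphopichia pseudoburtonii and Hyphopichia burtonii by the start of each gene's protein description: hexokinase, glucokinase, glucose-6-phosphate isomerase, 6-phosphofructokinase subunit, fructose-bisphosphate aldolase or triosephosphate isomerase. This gave 17 of 12015 genes, 8 of 5900 in H. pseudoburtonii and 9 of 6115 in H. burtonii. Strains KJS14 (H. pseudoburtonii) and KJJ43 (H. burtonii) are wild-type isolates from Nuruk, a Korean fermentation starter, and each species is represented by its 1 strain. Cultures growing in YPD were brought from an OD600 of 0.6 to 2.0 and then mixed with an equal volume of YPD holding 2 M NaCl, so that the final concentration was 1 M. Harvests were made just ahead of this (0 min) and again 5, 15 and 30 min later, and 2 RNA-seq libraries were sequenced for each species and harvest, 16 in total. Fresh medium was added together with the salt, so the effects of salt and of fresh medium cannot be told apart. Each species has a library series of its own. Nothing states that the paired libraries of a harvest are separate cultures, and p-values then measure only the spread between these samples, which may be technical.

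In upper glycolysis a hexokinase or glucokinase places a phosphate on glucose, and the isomerase Pgi1 turns the product into fructose 6-phosphate. Phosphofructokinase, in yeasts a complex of alpha and beta subunits, then spends a second ATP and commits the sugar to glycolysis. Aldolase splits fructose 1,6-bisphosphate, and triosephosphate isomerase interconverts the resulting trioses. One of these trioses, dihydroxyacetone phosphate, is the precursor of glycerol, the main osmolyte of many yeasts, so that under salt stress the pathway feeds both energy metabolism and glycerol synthesis. The isomerases and aldolase also work in the reverse direction in gluconeogenesis, whereas the kinase steps do not.

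Values are FPKM, deposited as fragments scaled to gene length and library size, so levels of genes within a library can be set side by side per length. The tables of the species were normalised separately, and levels of the species are printed beside each other without a test. A library's FPKM added up to 1259069 at the lowest and 1498017 at the highest, with no read counts beside them. Relative depth, roughly estimated from the lowest values of each library, was highest at 0 min in H. pseudoburtonii (0.974 and 1, against 0.267 to 0.505 later) and lowest at 0 min in H. burtonii (0.541 and 0.464, against 0.599 to 1 later). The part of depth in the changes was not tested. Changes are log2 differences in FPKM + 1 from limma, and a gene is said to have risen or fallen where its Benjamini-Hochberg adjusted p, taken over every tested gene of the species, was under 0.05. The comparisons with 0 min share the 0 min libraries. With 2 libraries a group, a lack of overlap with 0 min is common. In H. pseudoburtonii 35.9%, 36.4% and 53.4% of all tested genes lay wholly above the 0 min libraries at 5, 15 and 30 min. Wholly below them lay 21.3%, 25.2% and 23.1%. In H. burtonii the shares were 35.1%, 46.5% and 57.5% above and 32.4%, 15.8% and 18.1% below.

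Upper glycolysis genes fell in both species, but at different times. In H. pseudoburtonii 7 of 8 genes had fallen at 5 min, and 2 were still called lower at 30 min. In H. burtonii 0 of 9 were called at 5 min, and 6 and 7 had fallen at 15 and 30 min. Aldolase in H. burtonii and glucokinase in H. pseudoburtonii stood apart from most upper glycolysis genes of their species: aldolase was called at no time, and glucokinase was above its starting level at 30 min. Whether changes differ between the genes of a species was not tested. The hexokinase gene hxkA, at low FPKM, also stood apart in H. burtonii, where it was called higher at 30 min. In H. pseudoburtonii hxkA was called at no time, with changes of -0.94 and -0.90 at 5 and 15 min. These changes had an SE of 0.39 each and were near those of genes that were called.

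At 5 min in H. pseudoburtonii, 7 genes fell and 0 rose, while 4.55% of all 5798 tested genes fell and 4.17% rose (8.73% in all). At 15 min 6 fell and 0 rose, against 7.8% of all genes that fell and 9.9% that rose (17.7% in all). At 30 min 2 had fallen (PFK1 and TPI1) and 1 had risen (GLK1), against 9.69% and 25.8% of all genes (35.4% in all). The median log2 change of the 8 genes was -1.26, -0.89 and -0.33 at 5, 15 and 30 min, and that of all tested genes was 0.12, 0.10 and 0.39. In H. burtonii limma called 0 of 9 genes at 5 min, where 22.3% of all 6047 tested genes were called (11.1% lower and 11.2% higher). At an unadjusted p under 0.05 there were 2, PGI1 (higher) and TPI1 (lower). At 15 min 6 fell and 0 rose, against 6.93% of all genes that fell and 22.8% that rose (29.7% in all). At 30 min 7 had fallen and 1 had risen (hxkA), against 11.1% and 37% of all genes (48.1% in all). The median log2 change of the 9 genes was 0.05, -0.87 and -1.75, and that of all genes was 0.07, 0.39 and 0.56. The counts at 5 and 15 min in H. pseudoburtonii rest on both 0 min libraries: without either of them, fewer of these genes were called. Among the leave-outs, calls over all genes were also fewest without 0 min replicate 2. Changes relative to the median of all genes are larger for a gene that fell at 30 min. Scaling by the median ratio, which takes that shift out, gave 6 fallen genes in H. pseudoburtonii at 30 min. Over all genes, more were called lower with that scaling too.

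**Figure D1:**
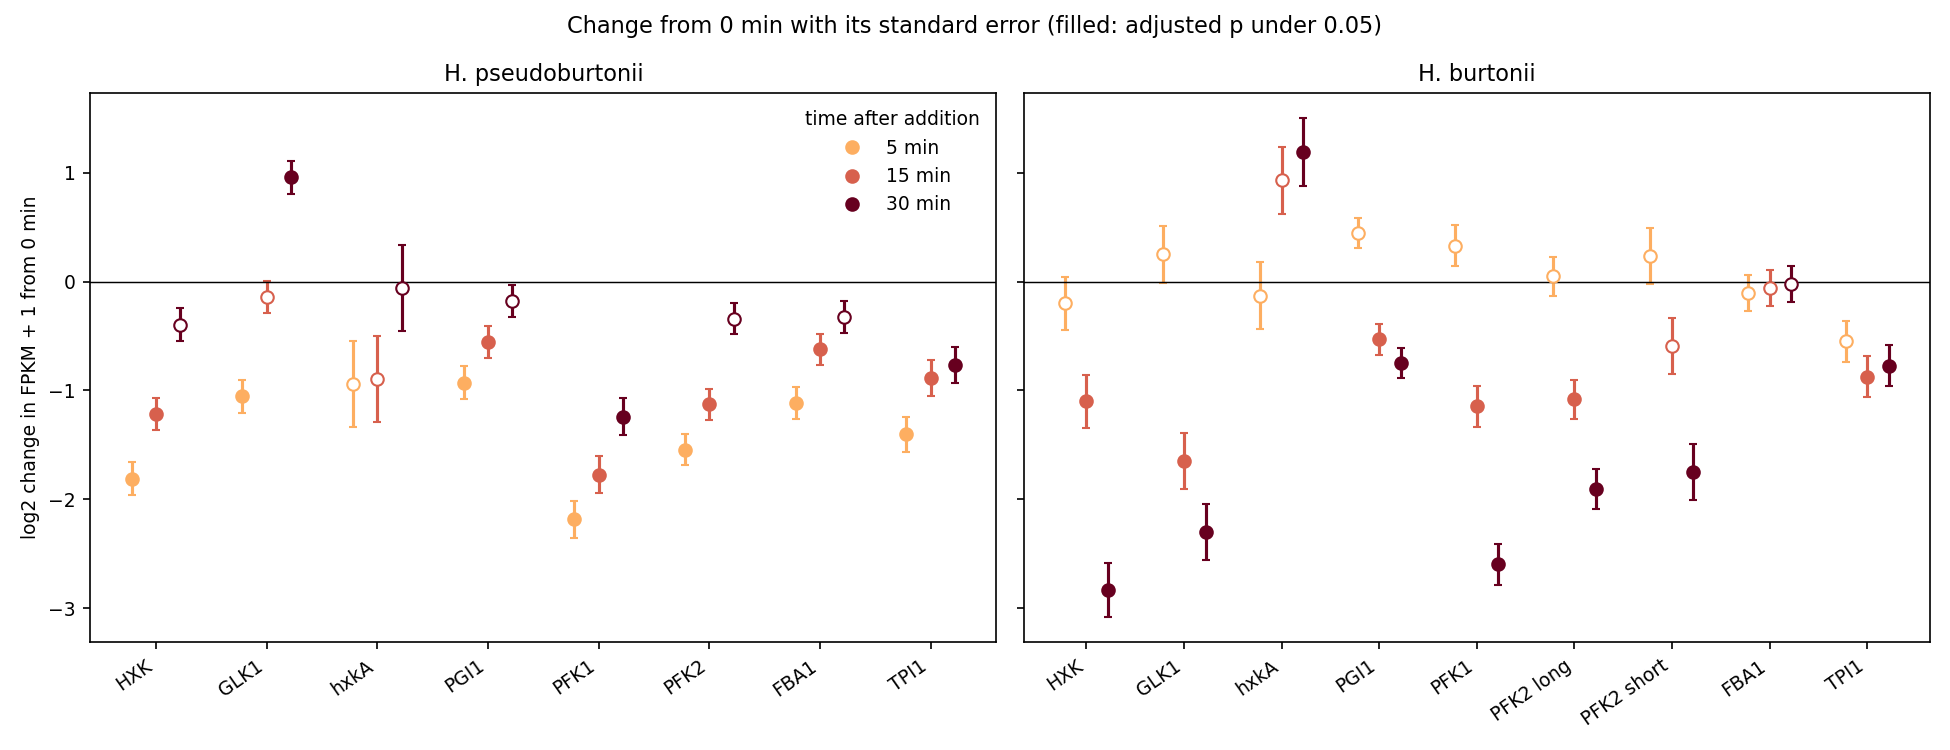
Log2 change in FPKM + 1 from 0 min (vertical axis) of each upper glycolysis gene in H. pseudoburtonii (left) and H. burtonii (right) at 5, 15 and 30 min, with its standard error; filled points have an adjusted p under 0.05 in limma, and PFK2 long and PFK2 short are the neighbouring gene models of H. burtonii. The H. pseudoburtonii points lie lowest at 5 min and most climb back later, whereas the H. burtonii points lie near 0 at 5 min and reach -2.83 (HXK) at 30 min.

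HXK, annotated as hexokinase, was the most expressed of the glucose-phosphorylating genes at 0 min in both species. In H. pseudoburtonii (TBIG004935, chromosome 6) it had 1192 and 1326 FPKM at 0 min, 342 and 374 at 5 min, 492 and 593 at 15 min, and 953 and 959 at 30 min. Both libraries of every later time lay below both 0 min libraries, and the lowest values were those of 5 min. HXK fell by 1.81 on the log2 scale at 5 min (SE 0.15, adjusted p = 0.000557, limma) and by 1.22 at 15 min (SE 0.15, adjusted p = 0.00217), and its change at 30 min was -0.39 (adjusted p = 0.0766). In that last comparison it was called without either 15 min library, at an unchanged -0.39, and with median-ratio scaling, at -0.80.

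In H. burtonii HXK (TBIG000623, chromosome 1) had 6679 and 10862 FPKM at 0 min, 7240 and 7597 at 5 min, 3506 and 4499 at 15 min, and 1217 and 1171 at 30 min. The 5 min libraries lay between the 0 min ones, and the later libraries lay below them, so that by 30 min 13.6% of the mean 0 min level was left. HXK fell by 1.10 at 15 min (SE 0.25, adjusted p = 0.0151) while at 30 min it fell by 2.83 (SE 0.25, adjusted p = 0.000134), the largest fall among the 17 genes at any time. At 15 min the call was lost without 15 min replicate 1, at -0.92.

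GLK1, the glucokinase gene, was above its 0 min level at 30 min in H. pseudoburtonii and below it in H. burtonii. In H. pseudoburtonii (TBIG003241, chromosome 4) it had 513 and 539 FPKM at 0 min, 274 and 233 at 5 min, 447 and 508 at 15 min, and 1051 and 997 at 30 min. The 5 min libraries were the lowest and the 30 min libraries the highest, with no overlap with 0 min in either case. GLK1 fell by 1.05 at 5 min (SE 0.15, adjusted p = 0.00695), changed by -0.14 at 15 min (adjusted p = 0.566) and rose by 0.96 at 30 min (SE 0.15, adjusted p = 0.00297). The call at 5 min was lost without 0 min replicate 1 (-1.09) or replicate 2 (-1.02), and the rise at 30 min was called in each of the 17 other settings, down to 0.56 with median-ratio scaling.

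In H. burtonii GLK1 (TBIG004076, chromosome 5) had 715 and 1183 FPKM at 0 min, 1117 and 1073 at 5 min, 248 and 346 at 15 min, and 189 and 183 at 30 min. The libraries of 15 and 30 min all lay below those of 0 and 5 min. GLK1 fell by 1.65 at 15 min (SE 0.26, adjusted p = 0.00417) and by 2.30 at 30 min (SE 0.26, adjusted p = 0.000448).

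Within H. pseudoburtonii libraries the ratio of HXK to GLK1 FPKM averaged 2.39 at 0 min, 1.43 at 5 min, 1.13 at 15 min and 0.935 at 30 min. Both 30 min libraries were below 1 (0.906 and 0.963), so that GLK1 was then the gene with more FPKM of the pair. Within H. burtonii libraries the ratio was 9.26, 6.78, 13.6 and 6.42 at the same times, and in no library did GLK1 exceed HXK.

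The remaining kinase gene, hxkA, carries the description hexokinase-1 and was the lowest of the members at every time in both species. In H. pseudoburtonii (TBIG000220, chromosome 1) it had 22.7 and 14.7 FPKM at 0 min, 9.12 and 9.01 at 5 min, 6.78 and 12.9 at 15 min, and 16.3 and 18.9 at 30 min. The 5 and 15 min libraries lay below both 0 min ones, and those of 30 min lay between them. None of its changes was called, at -0.94, -0.90 and -0.06 (adjusted p = 0.190, 0.163 and 0.922). In H. burtonii hxkA (TBIG001710, chromosome 2) had 7.24 and 4.59 FPKM at 0 min, 6.13 and 4.40 at 5 min, 10.2 and 13.9 at 15 min, and 15.3 and 13.7 at 30 min. It was the 1 upper glycolysis gene of this species that rose, by 1.19 at 30 min (SE 0.31, adjusted p = 0.0153), and its change at 15 min was 0.93 (adjusted p = 0.056). The rise at 30 min was not called without 0 min replicate 2 (0.91), 30 min replicate 1 (1.12) or 30 min replicate 2 (1.27), nor with median-ratio (0.73) or quantile scaling (0.50). The change at 15 min was called without 0 min replicate 1 (1.21), without the trend in the prior variance, and with a pseudocount of 10 (0.47). At levels this low the added 1 FPKM understates a change.

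**Figure D2:**
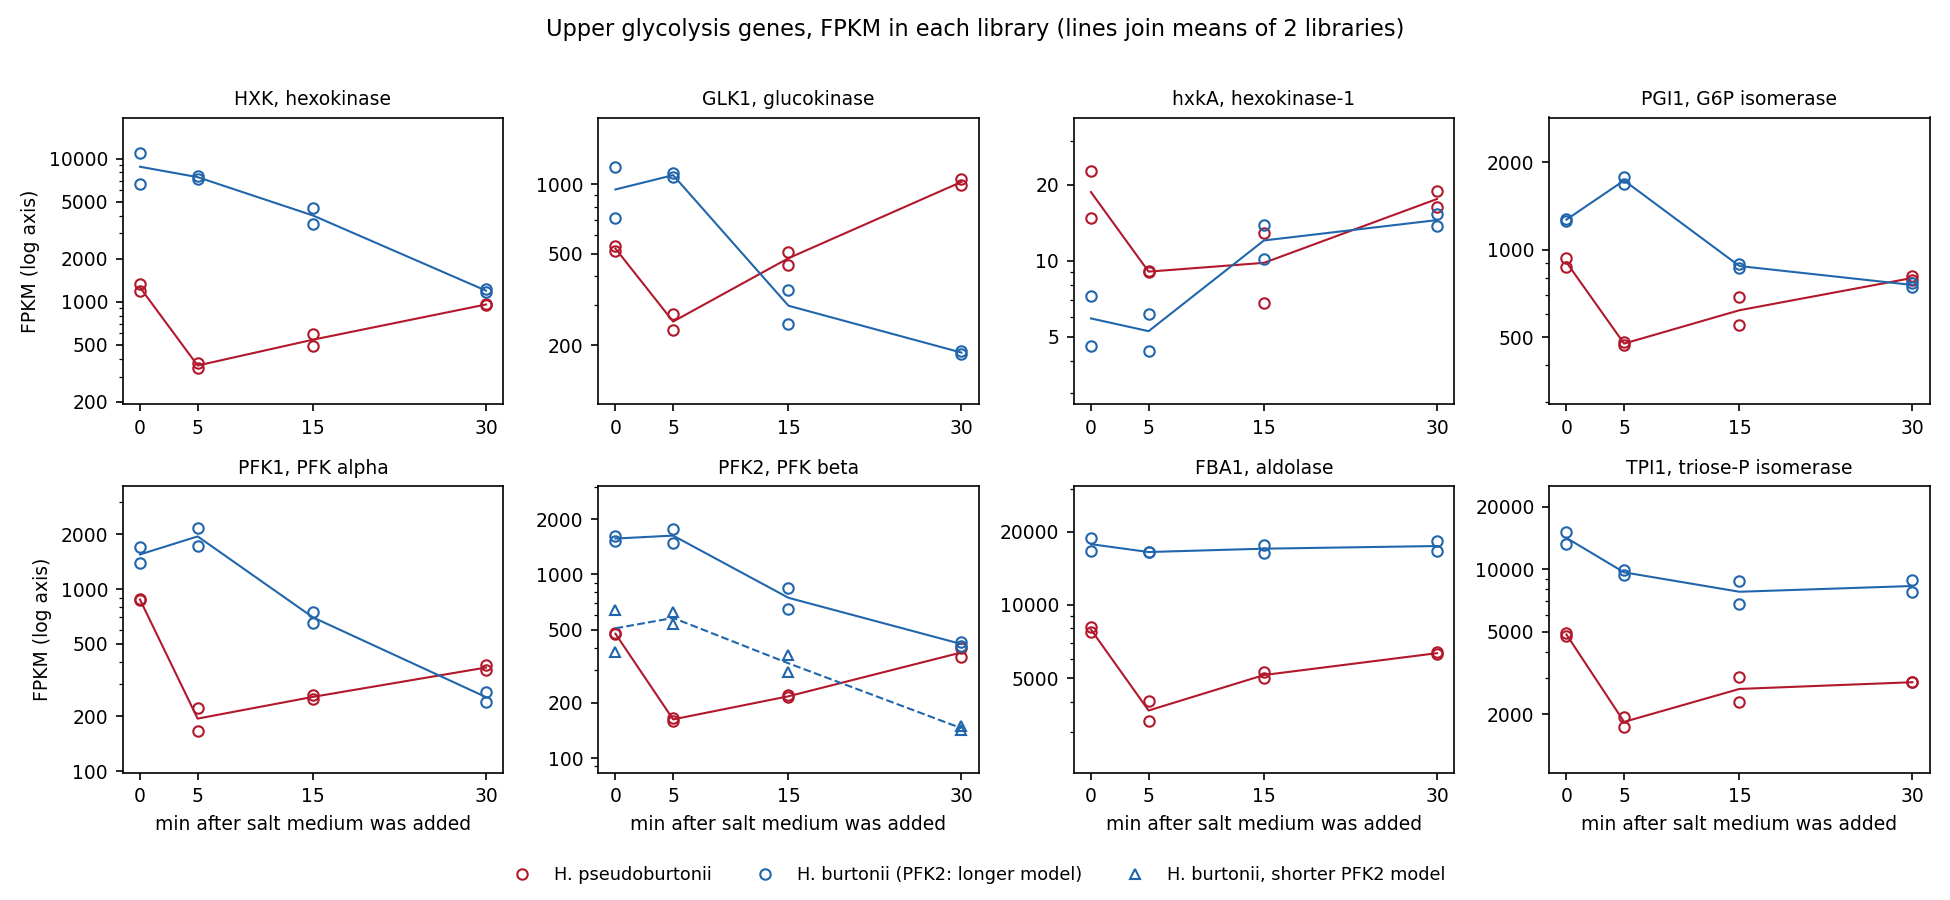
FPKM on a log axis (vertical) against min after salt medium was added (horizontal) for the 8 enzyme genes, with a point for each library and lines through the means of 2 libraries. H. pseudoburtonii means are lowest at 5 min for each gene, while H. burtonii values of HXK, GLK1, PGI1, PFK1 and PFK2 drop after 5 min and those of FBA1 stay between 16430 and 18871 FPKM.

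PGI1 encodes glucose-6-phosphate isomerase. In H. pseudoburtonii (TBIG001984, chromosome 2) it had 875 and 935 FPKM at 0 min, 479 and 471 at 5 min, 552 and 686 at 15 min, and 788 and 811 at 30 min. All later libraries lay below both 0 min libraries. PGI1 fell by 0.93 at 5 min (SE 0.15, adjusted p = 0.0120) and by 0.56 at 15 min (SE 0.15, adjusted p = 0.0416), and its change at 30 min was -0.18 (adjusted p = 0.388). The 5 min call was lost without 0 min replicate 1 (-0.98) or replicate 2 (-0.88). The 15 min call was lost without either of them (-0.60 and -0.51), without 15 min replicate 1 (-0.40), without either 30 min library (-0.56) and without the trend. With median-ratio scaling the change at 30 min was called, at -0.58.

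In H. burtonii PGI1 (TBIG002460, chromosome 3) had 1279 and 1259 FPKM at 0 min, 1683 and 1779 at 5 min, 862 and 895 at 15 min, and 767 and 746 at 30 min. The 5 min libraries lay above both 0 min libraries, with a change of 0.45 that was not called (adjusted p = 0.0548; 0.0396 with no filter). PGI1 fell by 0.53 at 15 min (SE 0.14, adjusted p = 0.0260), a call lost without any 1 of the 0, 5 and 15 min libraries (-0.50 to -0.56) or without the trend, and by 0.75 at 30 min (SE 0.14, adjusted p = 0.00387).

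PFK1, the alpha subunit gene of phosphofructokinase, fell the most of the 8 genes at each time in H. pseudoburtonii. It (TBIG000814, chromosome 1) had 869 and 886 FPKM at 0 min, 222 and 167 at 5 min, 263 and 249 at 15 min, and 381 and 361 at 30 min. All later libraries lay far below both 0 min libraries. PFK1 fell by 2.18 at 5 min (SE 0.17, adjusted p = 0.000438), by 1.77 at 15 min (SE 0.17, adjusted p = 0.000877) and by 1.24 at 30 min (SE 0.17, adjusted p = 0.00175), and was still at 42.3% of its mean 0 min level at 30 min. These calls held in each of the 17 other settings.

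PFK2, the beta subunit gene of H. pseudoburtonii (TBIG001422, chromosome 2), had 471 and 480 FPKM at 0 min, 159 and 166 at 5 min, 219 and 215 at 15 min, and 354 and 398 at 30 min. Each later library lay below both 0 min libraries. PFK2 fell by 1.54 at 5 min (SE 0.14, adjusted p = 0.000986) and by 1.13 at 15 min (SE 0.14, adjusted p = 0.00227). Its change at 30 min was -0.34 (adjusted p = 0.0994), and it was called there with no filter (-0.34) and with median-ratio scaling (-0.74). The ratio of PFK1 to PFK2 FPKM within H. pseudoburtonii libraries was 1.84 and 1.85 at 0 min, 1.40 and 1.00 at 5 min, 1.20 and 1.16 at 15 min, and 1.08 and 0.907 at 30 min. The subunit genes thus started with unequal FPKM and ended near equality.

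In H. burtonii the PFK2 description falls on 2 neighbouring models on the minus strand of chromosome 1. The longer (TBIG001151) spans 2301984 to 2304170, 2187 bp, and the shorter (TBIG001152) spans 2304193 to 2304846, 654 bp, in the coordinates of the deposited table (build not given in the sources used here). The models are 22 bp apart and together cover 2863 bp, against 2856 bp for the single PFK2 model of H. pseudoburtonii. Whether they are parts of 1 gene was not tested.

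PFK1 in H. burtonii (TBIG002706, chromosome 3) had 1391 and 1713 FPKM at 0 min, 2163 and 1738 at 5 min, 654 and 745 at 15 min, and 272 and 239 at 30 min. Both 5 min libraries lay above both 0 min libraries, with a change of 0.33 that was not called (adjusted p = 0.228), and the 15 and 30 min libraries lay below all of these. PFK1 fell by 1.14 at 15 min (SE 0.19, adjusted p = 0.00482) and by 2.60 at 30 min (SE 0.19, adjusted p = 5.43e-05). The longer PFK2 model had 1522 and 1614 FPKM at 0 min, 1778 and 1476 at 5 min, 843 and 649 at 15 min, and 409 and 426 at 30 min, and fell by 1.08 at 15 min and by 1.91 at 30 min (SE 0.18 each, adjusted p = 0.00522 and 0.000209). The shorter model had 376 and 641 FPKM at 0 min, 623 and 536 at 5 min, 364 and 292 at 15 min, and 141 and 149 at 30 min. Its change of -0.59 at 15 min was not called (adjusted p = 0.121), though it was without 0 min replicate 1 (-0.97) and with median-ratio scaling (-0.95), and it fell by 1.75 at 30 min (SE 0.26, adjusted p = 0.00143). With the FPKM of the models summed, PFK2 changed by 0.09, -0.96 and -1.88, and the last 2 were called (adjusted p = 0.00959 and 0.000253). FPKM is already per length, so this sum is not the FPKM of 1 gene if the models are its parts. The same sum enters the PFK2 species difference given below. The ratio of PFK1 to the longer PFK2 model was 0.914 and 1.06 at 0 min and 0.664 and 0.560 at 30 min, so that PFK1 was the lower of the pair in both 30 min libraries.

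FBA1, the aldolase gene, had the highest FPKM of the pathway in each group of both species. In H. pseudoburtonii (TBIG004424, chromosome 6) it had 7708 and 8130 FPKM at 0 min, 3328 and 4021 at 5 min, 5017 and 5270 at 15 min, and 6399 and 6259 at 30 min. All later libraries lay below both 0 min libraries. FBA1 fell by 1.11 at 5 min (SE 0.15, adjusted p = 0.00472) and by 0.62 at 15 min (SE 0.15, adjusted p = 0.0250), and its change at 30 min was -0.32 (adjusted p = 0.120), which was called with median-ratio scaling (-0.73) and turned to 0.19 with quantile scaling. The 5 min call was lost without 0 min replicate 1 (-1.15) or replicate 2 (-1.08). The 15 min call was lost without either of these (-0.66 and -0.58), without 15 min replicate 1 (-0.59), without either 30 min library (-0.62) and without the trend.

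In H. burtonii FBA1 (TBIG004672, chromosome 6) had 16716 and 18871 FPKM at 0 min, 16467 and 16571 at 5 min, 16430 and 17671 at 15 min, and 18297 and 16673 at 30 min. Its changes were -0.10, -0.06 and -0.02, with 95% intervals of -0.49 to 0.28, -0.44 to 0.32 and -0.41 to 0.36, and none was called (adjusted p = 0.665, 0.797 and 0.913). The direction was not stable to scaling, at 0.40 at 15 and 30 min with quantile scaling and -0.42 and -0.54 with median-ratio scaling, none of them called. The ratio of FBA1 to PFK1 FPKM in H. burtonii libraries was 12.0 and 11.0 at 0 min, 7.61 and 9.54 at 5 min, 25.1 and 23.7 at 15 min, and 67.4 and 69.9 at 30 min. In H. pseudoburtonii libraries it was 8.87 and 9.18 at 0 min and between 15.0 and 24.1 at every later time.

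TPI1 encodes triosephosphate isomerase. In H. pseudoburtonii (TBIG001641, chromosome 2) it had 4776 and 4911 FPKM at 0 min, 1740 and 1928 at 5 min, 2286 and 3003 at 15 min, and 2851 and 2848 at 30 min. All later libraries lay below both 0 min libraries. TPI1 fell by 1.40 at 5 min (SE 0.16, adjusted p = 0.00263), by 0.89 at 15 min (SE 0.16, adjusted p = 0.0108) and by 0.77 at 30 min (SE 0.16, adjusted p = 0.00991). The 15 min call was lost without 0 min replicate 1 (-0.91) or replicate 2 (-0.87). The 30 min call was lost without either of them (-0.79 and -0.75), without either 30 min library (-0.77 and -0.76), and with quantile scaling, where the change was -0.08.

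In H. burtonii TPI1 (TBIG000922, chromosome 1) had 15064 and 13250 FPKM at 0 min, 9941 and 9370 at 5 min, 8783 and 6784 at 15 min, and 7746 and 8848 at 30 min. Its 5 min libraries already lay below both 0 min libraries, with a change of -0.55 that was not called (adjusted p = 0.0721; 0.0305 with quantile scaling). TPI1 fell by 0.87 at 15 min (SE 0.19, adjusted p = 0.0134) and by 0.77 at 30 min (SE 0.19, adjusted p = 0.0125). The 15 min call was lost without 15 min replicate 2 (-0.69) and the 30 min call without 30 min replicate 1 (-0.67).

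At 0 min FBA1, TPI1 and HXK were the top genes in both. At 30 min the order in H. pseudoburtonii was FBA1 (6329 ± 99.3 FPKM, SD, n = 2), TPI1 (2850 ± 1.71), GLK1 (1024 ± 38.5), HXK (956 ± 4.64), PGI1 (800 ± 16.7), PFK2 (376 ± 31.2), PFK1 (371 ± 13.8) and hxkA (17.6 ± 1.84). Of these neighbours in the order, the ranges of PFK2 and PFK1 overlapped. At 30 min in H. burtonii it was FBA1 (17485 ± 1148), TPI1 (8297 ± 780), HXK (1194 ± 32.3), PGI1 (756 ± 15.1), the longer PFK2 model (418 ± 12.4), PFK1 (255 ± 23.3), GLK1 (186 ± 4.52), the shorter PFK2 model (145 ± 5.47) and hxkA (14.5 ± 1.12), with no overlap between neighbours. The members together made up 1.15%, 0.484%, 0.712% and 0.994% of the FPKM sum at 0, 5, 15 and 30 min in H. pseudoburtonii, and 3.33%, 2.74%, 2.29% and 2.03% in H. burtonii. In both species FBA1 and TPI1 held most of that share.

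**Figure D3:**
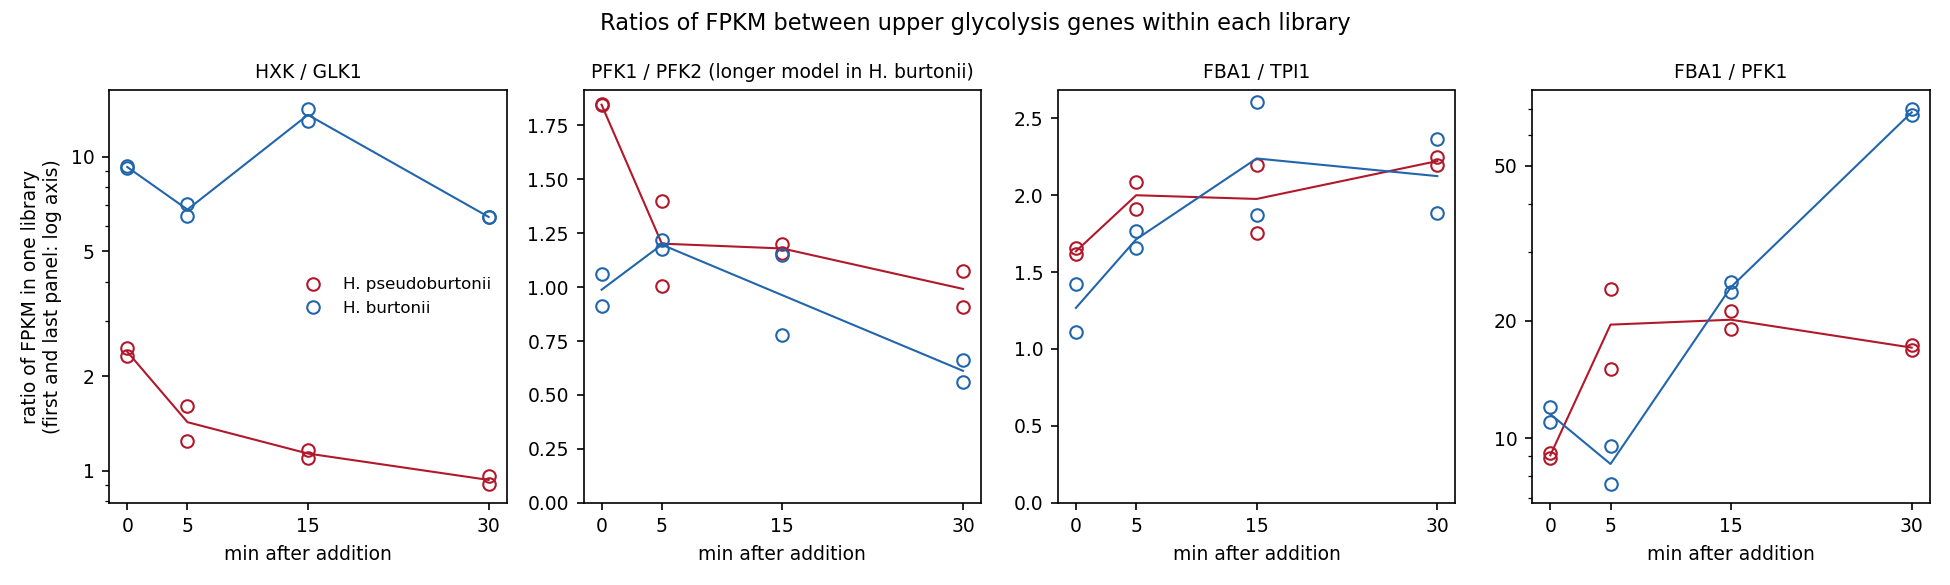
Ratio of the FPKM of 2 genes within each library (vertical; the outer panels have a log axis) against min after the addition (horizontal), with lines through the means of 2 libraries. HXK over GLK1 drops to 0.935 in H. pseudoburtonii at 30 min, and FBA1 over PFK1 reaches 68.6 in H. burtonii at 30 min.

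Comparing each harvest with the one before it placed the changes more narrowly. In H. pseudoburtonii GLK1 rose by 0.91 between 5 and 15 min (SE 0.15, adjusted p = 0.0212), the 1 call among 8 genes, where 4.78% of all genes were called (3.05% higher and 1.72% lower). The call was lost without 5 min replicate 2 (0.79), and also, at an unchanged 0.91, without any 1 of the 0 and 30 min libraries or without the trend. The changes of the 8 genes between 5 and 15 min all lay above 0, from 0.045 to 0.91. Their median was 0.45, against -0.01 for all genes. Between 15 and 30 min GLK1 rose by 1.10 (SE 0.15, adjusted p = 0.00862), HXK by 0.82 (SE 0.15, adjusted p = 0.0174) and PFK2 by 0.79 (SE 0.14, adjusted p = 0.0171), which are 3 of 8 genes against 11% of all genes that rose and 3.38% that fell (14.3% in all). No member was called in that step without 30 min replicate 1 or 30 min replicate 2, where GLK1 was at 1.06 and 1.14. Without either 0 min library, and with median-ratio scaling, GLK1 alone was called.

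In H. burtonii 5 of 9 genes fell and 1 rose between 5 and 15 min, against 3.95% and 16.1% of all genes (20.1% in all). GLK1 fell by 1.90 (SE 0.26, adjusted p = 0.00476), PFK1 by 1.47 (SE 0.19, adjusted p = 0.00359), the longer PFK2 model by 1.13, PGI1 by 0.98 and HXK by 0.90, and hxkA rose by 1.06. Without 5 min replicate 1, 0 members were called, with GLK1 at -1.87 and PFK1 at -1.31, and without 5 min replicate 2 there were 2. The HXK call was lost in 9 of 17 other settings, among them each leave-out of a 5, 15 or 30 min library (-1.08 to -0.72) and quantile scaling (-0.64). Between 15 and 30 min HXK fell by 1.73 more (SE 0.25, adjusted p = 0.00419), PFK1 by 1.45 (SE 0.19, adjusted p = 0.00298), the shorter PFK2 model by 1.16 and the longer by 0.82, which are 4 of 9 genes against 6.73% of all genes that fell and 9.49% that rose (16.2% in all). Without 5 min replicate 1 or 2, 15 min replicate 1, or 30 min replicate 1 or 2, the 2 calls left were HXK and PFK1. GLK1 changed by -0.65 in that step (adjusted p = 0.131), with its 30 min libraries below both 15 min ones. Whether the steps differ between the genes was not tested.

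To ask whether the responses differed between the species, the change in H. burtonii was taken from that in H. pseudoburtonii in 1 fit over 3354 tested gene pairs. The 7 pairs HXK, GLK1, hxkA, PGI1, PFK1, FBA1 and TPI1 could be made, and PFK2 was left out of them because of its 2 models in H. burtonii. At 5 min 6 of 7 differences were called, all of them below 0, against 7.69% of all pairs below and 7.75% above it (15.4% in all). PFK1 differed by -2.51 (95% interval -3.08 to -1.94, adjusted p = 0.000107), HXK by -1.61 (-2.27 to -0.95, adjusted p = 0.00445), PGI1 by -1.37 (-1.82 to -0.93, adjusted p = 0.00102), GLK1 by -1.31 (-2.01 to -0.60, adjusted p = 0.0181), FBA1 by -1.01 (-1.45 to -0.57, adjusted p = 0.00646) and TPI1 by -0.85 (-1.39 to -0.31, adjusted p = 0.0364). hxkA, at -0.81, was not called (adjusted p = 0.264). The TPI1 call was lost without H. burtonii 0 min replicate 2 (-0.76), without either 5 min library of either species (-0.93 to -0.78), without either 0 min or either 30 min library of H. pseudoburtonii (-0.87 to -0.83), with quantile scaling (-0.38) and without the trend. The GLK1 call also depended on single libraries. Leaving out 0 min replicate 1 (-0.94) or 1 of the 5 min libraries (-1.28 and -1.33) of H. burtonii ended it, as did leaving out 1 of the 0 min libraries (-1.34 and -1.27) or 5 min replicate 2 (-1.19) of H. pseudoburtonii.

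At 15 min the difference for GLK1 had turned round, to 1.51 (95% interval 0.81 to 2.21, adjusted p = 0.00704), while hxkA differed by -1.83 (-2.89 to -0.76, adjusted p = 0.0208). These were the calls among 7 pairs, against 5.84% of all pairs called above 0 and 14.9% called below (20.8% in all). The hxkA call was lost without H. burtonii 0 min replicate 2 (-1.55) or 15 min replicate 2 (-1.62), without H. pseudoburtonii 0 min replicate 1 (-1.53) or 15 min replicate 1 (-1.41), and with quantile scaling (-1.27). PFK1, at -0.63, was not called (adjusted p = 0.108). FBA1, at -0.56 (adjusted p = 0.0677), was called with quantile scaling at -0.96. HXK, PGI1 and TPI1 differed by -0.12, -0.02 and -0.01, with 95% intervals of -0.77 to 0.54, -0.47 to 0.42 and -0.56 to 0.53. Their directions turned round with median-ratio and quantile scaling.

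At 30 min 4 of 7 pairs were called, all above 0, against 12.9% of all pairs above and 23.5% below it (36.4% in all). GLK1 differed by 3.26 (95% interval 2.56 to 3.96, adjusted p = 2.49e-05), HXK by 2.44 (1.78 to 3.10, adjusted p = 0.000103), PFK1 by 1.36 (0.78 to 1.93, adjusted p = 0.00185) and PGI1 by 0.57 (0.12 to 1.01, adjusted p = 0.0461). The PGI1 call was the weakest. It was lost without any 1 of 10 libraries, namely the 0 and 30 min libraries of both species and the 5 min libraries of H. burtonii (0.52 to 0.62), and with a pseudocount of 10 or without the trend. TPI1 differed by 0.01 (-0.54 to 0.55) and FBA1 by -0.30 (-0.74 to 0.14), neither called. hxkA differed by -1.25 (adjusted p = 0.0635) and was called without H. burtonii 0 min replicate 1 (-1.53), without either 15 min library of H. pseudoburtonii (-1.25), with quantile scaling (-1.40) and without the trend. With the H. burtonii PFK2 models summed, PFK2 differed by -1.63, -0.17 and 1.54 at 5, 15 and 30 min over 3355 pairs (adjusted p = 0.000889, 0.641 and 0.000443).

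**Figure D4:**
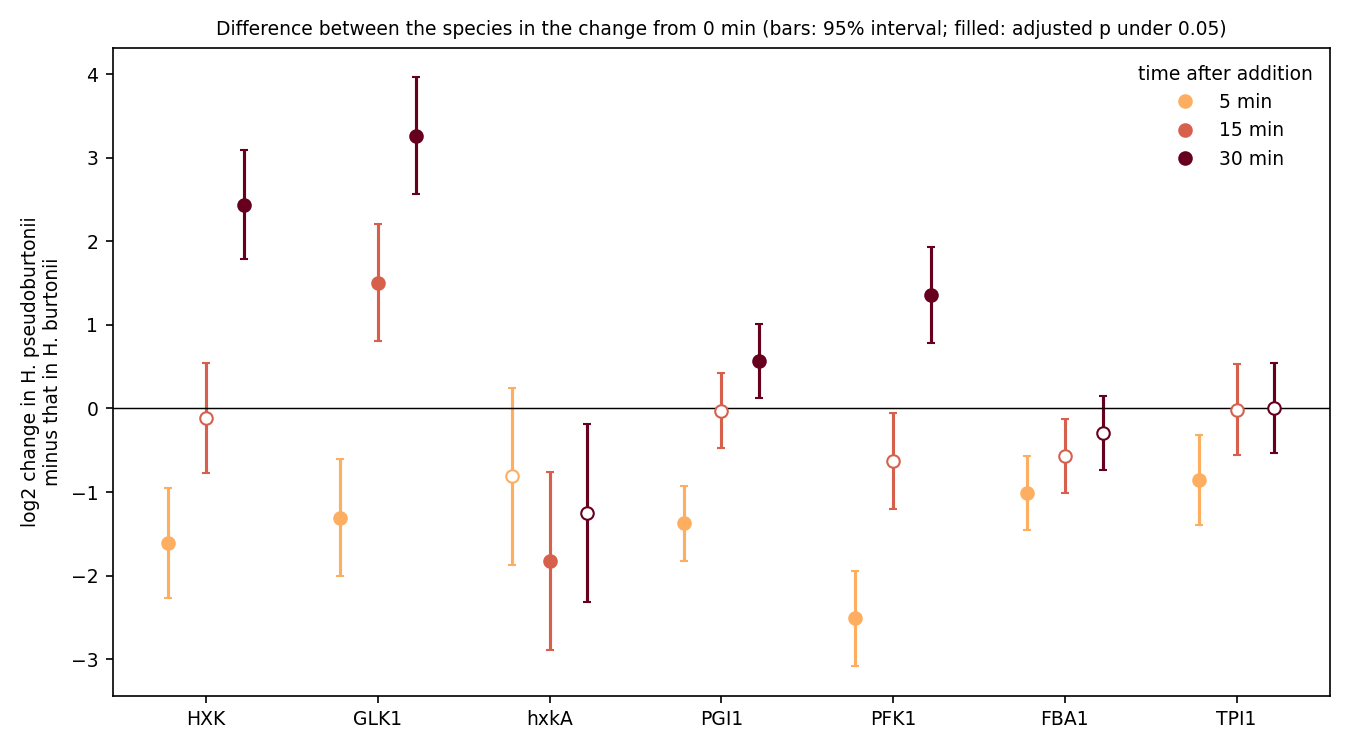
Log2 change from 0 min, H. pseudoburtonii minus H. burtonii (vertical), for the 7 paired genes at 5, 15 and 30 min, with 95% intervals; filled points have an adjusted p under 0.05 in limma. At 5 min 6 of 7 points are called below 0, and at 30 min GLK1, HXK, PFK1 and PGI1 are called above it.

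Genes next to upper glycolysis were listed by description. Of the lower glycolysis genes, from glyceraldehyde-3-phosphate dehydrogenase to pyruvate kinase, 7, 6 and 6 of 8 fell and 0, 1 and 1 rose at 5, 15 and 30 min in H. pseudoburtonii, where 4.55%, 7.8% and 9.69% of all tested genes fell and 4.17%, 9.9% and 25.8% rose. In H. burtonii 1, 5 and 7 of 9 fell and 1, 2 and 2 rose, where 11.1%, 6.93% and 11.1% of all genes fell and 11.2%, 22.8% and 37% rose. TDH1 (TBIG004457, a glyceraldehyde-3-phosphate dehydrogenase gene) and the enolase gene ENO2 had the smallest p-values of the list at 30 min in H. pseudoburtonii, at -4.80 and -1.71, and TDH1 (TBIG004709) and the dehydrogenase gene GPD beside it (TBIG004708) in H. burtonii, at -4.72 and -4.54. Of 11 branch and control genes in each species, 0, 2 and 2 rose and 3, 3 and 1 fell in H. pseudoburtonii, and 1, 4 and 5 rose and 1, 0 and 1 fell in H. burtonii. Set against the same shares of all genes, the numbers that rose are near the background, so nothing is read from them. The 3 of 11 that fell in H. pseudoburtonii at 5 and at 15 min stand beside 4.55% and 7.8% of all genes. The other numbers that fell are near the background. One gene, UTR4, an enolase-phosphatase of another pathway, was caught by the description search and left out.

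Fructose-1,6-bisphosphatase, encoded by FBP1, catalyses in gluconeogenesis the reverse of the phosphofructokinase step. In H. pseudoburtonii FBP1 (TBIG002341) had 505 and 554 FPKM at 0 min, 101 and 168 at 5 min, 357 and 391 at 15 min, and 861 and 832 at 30 min. It fell by 2.02 at 5 min (SE 0.23, adjusted p = 0.00258), when PFK1 fell too, and its change at 30 min was 0.68 (adjusted p = 0.0552). The H. pseudoburtonii gene is given here after its values were seen, as the partner of the H. burtonii gene. In H. burtonii FBP1 (TBIG006044) had 1618 and 1326 FPKM at 0 min, 1383 and 1258 at 5 min, 4291 and 3488 at 15 min, and 5669 and 6803 at 30 min. It rose by 2.08 at 30 min (SE 0.19, adjusted p = 0.000168), while PFK1 and both PFK2 models fell. In H. pseudoburtonii libraries the ratio of FBP1 to PFK1 FPKM was 0.581 and 0.625 at 0 min, 0.453 and 1.01 at 5 min, 1.36 and 1.57 at 15 min, and 2.26 and 2.30 at 30 min. In H. burtonii libraries it was 1.16 and 0.774 at 0 min, 0.640 and 0.724 at 5 min, 6.56 and 4.68 at 15 min, and 20.9 and 28.5 at 30 min. The 5 min libraries overlapped those of 0 min in H. pseudoburtonii and lay below them in H. burtonii, and the 30 min libraries were the highest in both.

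PFK27 encodes a 6-phosphofructo-2-kinase, which makes fructose 2,6-bisphosphate, an activator of phosphofructokinase and inhibitor of fructose-1,6-bisphosphatase. In H. pseudoburtonii PFK27 (TBIG005146) had 172 and 163 FPKM at 0 min, 12.8 and 14.8 at 5 min, 21.1 and 27.3 at 15 min, and 31.6 and 54.0 at 30 min, and it fell by 1.99 at 30 min (SE 0.30, adjusted p = 0.00256). The copy of the glycerol-3-phosphate dehydrogenase gene GPD that the rule picked, whose product draws on the triose made by aldolase, rose at 30 min by 2.50 in H. pseudoburtonii (TBIG004673) and by 1.33 in H. burtonii (TBIG000228). Each species has a second copy, which was not called at 30 min, at 0.35 in H. pseudoburtonii (TBIG002496, adjusted p = 0.145) and -0.16 in H. burtonii (TBIG005904, adjusted p = 0.516). The second copy of H. pseudoburtonii had fallen by 0.69 at 15 min (adjusted p = 0.0310). At 30 min TPI1 had fallen in both species and FBA1 was called in neither.

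Over the 8 libraries of a species, the genes were compared with the mean standardised profile of the members, as a description. Each member is itself part of that mean, which raises its r. In H. pseudoburtonii the members correlated with that mean at r = 0.744 (GLK1) to 0.996 (HXK). In H. burtonii HXK, GLK1, PGI1, PFK1 and both PFK2 models had r between 0.869 and 0.972, TPI1 0.683, FBA1 0.08 and hxkA -0.905. The 5 other genes most like it among 5156 in H. pseudoburtonii were ADF1 (adherence factor, r = 0.989), HSP150 (a cell wall mannoprotein, 0.987), an unnamed gene (TBIG005848, 0.985), HXT6 (described as a high-affinity hexose transporter, 0.978) and SOL1 (described as 6-phosphogluconolactonase-like, 0.977). Among 5032 in H. burtonii they were MHP1 (0.987), FRA1 (0.983), an unnamed gene (TBIG005357, 0.979), TPA1 (0.979) and TBIG001053 (0.979). These 5 genes of each species were picked for the highest r among all candidates, so their high values follow from the choice. All libraries of a species share a normalisation and 4 harvest times, so such values describe a shared time course.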

How the data were processed

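The authors deposited 1 table of FPKM values per species and no counts. Per the submitters' processing notes, Cufflinks 2.2.1, TopHat2 2.1.1, FastQC 0.11.8 and CASAVA 1.8.2 were used. Their order and settings, the genome build, the annotation and the division of reads between similar or overlapping genes are details not given in the sources used here.

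Tests used log2(FPKM + 1) of genes that reached 1 FPKM in 2 or more of a species' 8 libraries, 5798 in H. pseudoburtonii and 6047 in H. burtonii. All 17 members passed. The limma 3.58.1 (R 4.3.3) fits had 4 time groups per species and a trended prior variance. Pairs across species shared a Swiss-Prot accession (3235) or, failing that, a gene name (135) found once in each table, and may join paralogs. The fits were first tested on simulated data with known changes at 30 min, in fewer genes than were called in the real data. A log2 change of 1 in size was called for 25.8% of changed genes in H. pseudoburtonii and 33.3% in H. burtonii. A species difference of 1 was called for 23%. For a size of 2 the shares were 75.7%, 77.8% and 71.6%, so many changes near 1 are missed. Named genes are all members, the 5 genes per species most like their mean with at least 10 FPKM on average, and at most 2 called neighbours of smallest adjusted p per list and species. The members and lists were chosen with earlier results of these data known. Figures were drawn with matplotlib 3.10.9 in Python 3.11.15.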

Additional observations from a re-analysis of the deposited data

Results flagged for a closer look

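The differences between the species in the change from 0 min were tested directly, in 1 limma fit over 3354 gene pairs. Of all pairs, 15.4%, 20.8% and 36.4% passed the adjusted threshold at 5, 15 and 30 min. Among the upper glycolysis genes, 12 of 21 tests passed it. Values are log2 changes of H. pseudoburtonii less those of H. burtonii. At 5 min they were PFK1 (-2.51), HXK (-1.61), PGI1 (-1.37), GLK1 (-1.31), FBA1 (-1.01) and TPI1 (-0.85). At 15 min they were hxkA (-1.83) and GLK1 (1.51), a number near the share of all pairs. At 30 min they were GLK1 (3.26), HXK (2.44), PFK1 (1.36) and PGI1 (0.57). For HXK, GLK1, PFK1 and PGI1 the difference was below 0 at 5 min and above 0 at 30 min. GLK1 at 30 min combines a rise of 0.96 in H. pseudoburtonii with a fall by 2.30 in H. burtonii, and it was called under every alternative and without any single library, between 2.90 and 3.62 where a library was left out. The species are 1 strain each and their libraries form separate series, so species, strain and series cannot be told apart.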

How the results depend on the processing

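Each result was recomputed under 9 other settings of scaling, pseudocount, filter, prior trend, replicate block and summed gene copies, and without each of the 16 libraries in turn. Where a library was left out, the lone library of its group is assumed to vary like the other groups. Over the tests on single genes, 790 results kept direction and call under the other settings, 24 lost a call, 13 gained one and 10, none of them called, changed direction. Without a library the numbers were 782, 107, 7 and 24. The cause of these changes was not tested.

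Called upper glycolysis genes at 30 min against 0 min in H. pseudoburtonii were 7 with median-ratio scaling, and between 15 and 30 min 1. With quantile scaling 1 was called at 5 min in H. burtonii (TPI1), as was 1 with no filter (PGI1), and without the trend 0 were called between 5 and 15 min in H. pseudoburtonii. Over all genes, H. burtonii had 673 and 698 calls between 5 and 15 min with median-ratio and quantile scaling and 1179 at 15 min against 0 min with quantile scaling, and H. pseudoburtonii had 182 between 5 and 15 min with no filter and 117 without the trend. Scaling moved the split of higher against lower calls over all genes. In H. pseudoburtonii 242 higher and 264 lower genes at 5 min became 156 and 334 with median-ratio scaling, 574 and 452 at 15 min became 468 and 556, and 1493 and 562 at 30 min became 883 and 989. In H. burtonii 1379 and 419 at 15 min became 704 and 743, and 2236 and 671 at 30 min became 1022 and 1092. The median of all genes at 30 min, 0.39 and 0.56, became 0.010 and 0.071 with median-ratio scaling.

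Libraries share replicate numbers across times, and nothing in the labels says that a number marks a shared culture. Deviations of same-numbered libraries correlated at -0.092 to 0.038 over the 6 pairs of times in H. pseudoburtonii. In H. burtonii they correlated at 0.16 (0 and 5 min), 0.46 (0 and 15 min) and 0.16 (5 and 15 min). For pairs with 30 min the values were -0.16 to 0.015, so only that of 0 and 15 min stood out. Whether same-numbered libraries share a culture was not tested. With a replicate block 333 genes were called at 5 min and 148 between 5 and 15 min in H. pseudoburtonii. Under the block PGI1 lost its call at 15 min in H. pseudoburtonii and in the species difference at 30 min, and hxkA lost that between 5 and 15 min in H. burtonii.

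Uncalled changes that turned round were, with quantile scaling, the longer PFK2 model at 5 min (-0.17) and FBA1 at 15 and 30 min (0.40 each) in H. burtonii and FBA1 at 30 min in H. pseudoburtonii (0.19). In the species difference at 15 min they were HXK (0.14 and 0.023), TPI1 (0.24 and 0.078) and PGI1 (0.23 and 0.15) with median-ratio and quantile scaling. Without single libraries, changes at 5 min in H. burtonii ran from -0.55 to 0.15 for HXK, -0.11 to 0.61 for GLK1, -0.41 to 0.15 for hxkA, -0.086 to 0.18 for the longer and -0.15 to 0.62 for the shorter PFK2 model. FBA1 there ran from -0.15 to 0.028 at 15 min and -0.11 to 0.063 at 30 min, and hxkA at 30 min in H. pseudoburtonii from -0.36 to 0.24. Species differences ran from -0.47 to 0.23 for HXK, -0.21 to 0.18 for TPI1 and -0.18 to 0.13 for PGI1 at 15 min, and from -0.090 to 0.10 for TPI1 at 30 min.

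Without single libraries, calls over all genes against 0 min ranged in H. pseudoburtonii from 94 to 665 at 5 min, 255 to 1164 at 15 min and 897 to 2368 at 30 min, with 4 to 7, 3 to 6 and 2 to 4 upper glycolysis genes. In H. burtonii they ranged from 178 to 1649, 908 to 2024 and 1783 to 3015, with 0, 4 to 7 and 6 to 8 upper glycolysis genes. Between 5 and 15 min and between 15 and 30 min the ranges were 81 to 351 and 0 to 1121 in H. pseudoburtonii, with 0 to 2 and 0 to 4 upper glycolysis genes, and 120 to 1588 and 240 to 1239 in H. burtonii, with 0 to 7 and 2 to 5. Species differences ranged from 244 to 664, 406 to 783 and 882 to 1300 pairs at 5, 15 and 30 min, with 4 to 6, 1 to 2 and 3 to 5 of the 7 pairs.

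With 2 libraries a group and depth known only roughly, an uncalled gene is not shown to be stable. hxkA, near the added 1 FPKM, is the least certain member.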
